A study of Mus musculus with 8 samples.

Results

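The integrin subunits Itgal, Itga4, Itga6, Itgav, Itgb2, Itgb1 and Itgb7, the intercellular adhesion molecules Icam1 and Icam2, and the tetraspanin Cd9 were examined in B cells with and without a conditional deletion of Eif4a1, which encodes an RNA helicase of translation initiation. The genes were chosen by symbol, as 10 of the 53242 genes in the deposited tables, and all 10 had enough counts to be tested. Splenic B cells, purified with a B cell isolation kit, came from C57BL/6 mice aged 8 to 12 weeks. Control mice were Eif4a1+/+ CD23-cre and 4A1 KO mice were Eif4a1fl/fl CD23-cre, so that both genotypes carried a transgenic Cre driven by Cd23 (Fcer2a), which deletes in splenic immature and mature B cells. Both genotypes were kept for 24 h in IL4 (40 ng/ml) on irradiated CD40LB feeders, fibroblast-derived cells that provide CD40 ligand and BAFF, and the feeders were then removed with beads. RNA of 8 libraries was sequenced, 4 per genotype, each from 1 mouse. Replicates 1 and 3 were male and replicates 2 and 4 female. Batch A held the first pair of numbers (1 and 2) and batch B the others. The study left out replicate 1 of both genotypes because of low viability. Means and tests below are therefore of replicates 2 to 4 (n = 3 per genotype), and replicate 1 is given beside them where single libraries are described.

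Integrins are receptors of one alpha and one beta chain that bind other cells and the extracellular matrix, and they need signals from inside the cell to bind strongly. In B cells the LFA-1 integrin, made of Itgal and Itgb2, binds the ICAM proteins and holds B cells to T cells, follicular dendritic cells and stroma, and the integrin of Itga4 and Itgb1 (VLA-4) binds VCAM-1 and fibronectin. Itga4 also pairs with Itgb7 to form the receptor for the mucosal addressin MAdCAM-1, and Cd9 is a tetraspanin that associates with integrins and is high on marginal zone B cells and plasma cells.

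RefSeq promoter sequences (250 bases before to 50 after the gene start, table build GRCm38.p6) were given for 6 of the 10 genes, Itga4, Itgav, Itgb1, Itgb7, Icam1 and Cd9, and each window below was placed in GRCm39 by an exact match. They are shown because Icam1 is a known target of NF-kB, the factor that CD40 activates, and because the ETS and PU.1 family drives many leukocyte integrin genes. Of 27025 genes with a promoter sequence, 103 (0.381%) held the NF-kB letters GGAAATTCC on either strand, among them 1 of the 6, and 997 (3.69%) held the ETS and PU.1 letters GAGGAAGT on either strand, among them 2 of the 6. The letters do not overlap between the motifs shown. Capitals mark the match, written 5′ to 3′ on the strand of the gene.
Icam1, chr9:20927073-20927102 (+): acttcagtttGGAAATTCCtagatcgcagg
Itgb7, chr15:102140352-102140381 (−): cagggtgtgtcACTTCCTCctctgctgcct
Itgav, chr2:83554721-83554750 (+): ccgtgagcgcgACTTCCTCtttcggcgggg
In Icam1 the match began 153 bases before the RefSeq gene start. In Itgb7 and Itgav the capitals are the reverse complement of the letters searched. In both they lay at the RefSeq gene start itself or within 10 bases before it. The GENCODE gene spans given below begin further upstream than the RefSeq starts, so by those spans the capitals of all 3 genes lie inside the gene. These matches are letters in a window and were not tested as binding sites. Of the 3 genes, Itgb7 was called lower in 4A1 KO, and Icam1 and Itgav were not called.

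The 6 libraries had between 38488341 and 43210858 counted reads, and the smallest of the 8 libraries, 4A1 KO 1, had 31727557. Eif4a1 itself was lower in every 4A1 KO library, at 629 ± 67.4 CPM (counts scaled to library size) against 856 ± 98.1 in control (SD, n = 3), and a large part of its mRNA was therefore still counted. Counts cover the whole gene, so transcripts with and without the deleted exons cannot be told apart. The B cell markers Ms4a1 and Fcer2a were present in every library, each above 500 CPM, and 4 of the 7 listed B cell markers, Cd79a, Cd79b, Cd22 and Cr2, were lower in 4A1 KO, beside 13.7% of all genes. Fcer2a had a log2 fold change of 0.30 (adjusted p = 0.00116, edgeR) and was not called. Of the 16 fibroblast markers, Lum and Postn had no counts in any library, and the summed level of all 16 was 26.8 to 46.1 CPM in controls 2 to 4 and 19.9 to 31.7 CPM in 4A1 KO 2 to 4. In replicate 1 the order was the other one, with 26.3 CPM in control and 30.2 CPM in 4A1 KO. Thy1 made up most of this sum in controls 3 and 4 (19.2 and 31.3 CPM) and in 4A1 KO 4 (20.7 CPM). In control 2 most of it was Col1a1 (27.4 CPM). In these bulk samples fewer cells of a type and less RNA per cell cannot be told apart.

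Itgb7 and Cd9 were called lower in 4A1 KO B cells by edgeR, where the call of Cd9 rests on replicate 2, and no member was called higher. Calls needed edgeR's quasi-likelihood test to give a Benjamini-Hochberg adjusted p, over all genes, below 0.05 together with a log2 fold change beyond 0.5 in either direction, as the study set them. By this rule 2 of the 10 genes were called, beside 25.3% of all 14218 genes tested (13.7% lower and 11.6% higher). With the p threshold alone, 4 of the 10 passed (Itgal, Itga4, Itgb7 and Cd9), beside 53.0% of all genes. The TPM, tested with limma, passed for 3 of the 10 (Itgal, Itga4 and Itgb7), beside 47.2%. The median log2 fold change was 0.03 over the 10 genes and 0.01 over all genes tested. With DESeq2, the tool of the study, neither Itgb7 (adjusted p = 0.0521) nor Cd9 (adjusted p = 0.0406, log2 fold change -0.499, and -0.46 with shrinkage) was called, and no other of the 10 genes was. In CPM the genotypes did not overlap for 1 of the 10, Itgb7, which was lower. Beside this, 50.9% of all genes did not overlap in the 6 libraries (25.4% lower, 25.5% higher) and 36.9% in the 8 (19.6% lower, 17.3% higher). In TPM the genotypes did not overlap for 2 of the 10, Itgal and Itgb7, beside 50.3% in the 6 libraries and 35.7% in the 8.

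**Figure D1:**
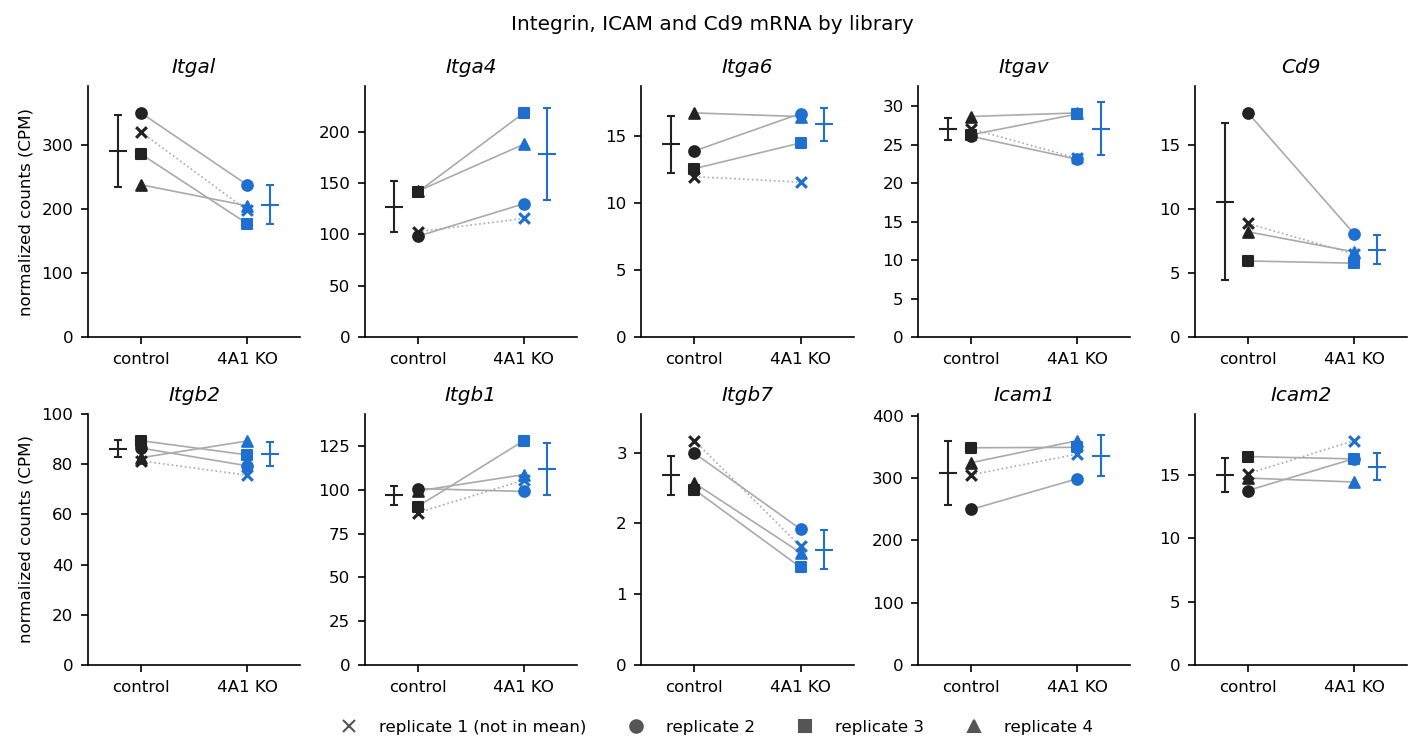
Normalized counts (CPM, vertical axis from 0, a separate scale for each gene) of the 10 genes in control (black) and 4A1 KO (blue) libraries. Lines join same-numbered libraries, and the bars beside the points are the mean and SD of replicates 2 to 4. Itgb7 is lower in all 4A1 KO libraries, Itgal falls and Itga4 rises in each pair, and control 2 stands above the other controls in Cd9.

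Among the alpha chains, Itgal, the LFA-1 alpha chain (ENSMUSG00000030830, chr7:126895432-126934320, plus strand, 31 exons), was at 320, 350, 286 and 238 CPM in controls 1 to 4. It was at 198, 238, 177 and 205 CPM in 4A1 KO 1 to 4. Each 4A1 KO library was below its same-numbered control, and the genotypes met in CPM only where control 4 and 4A1 KO 2 had nearly the same level. In TPM, which correct for transcript length, the genotypes did not overlap, at 114 ± 23.2 for control and 78.7 ± 8.30 for 4A1 KO cells (SD, n = 3). The log2 fold change of the counts was -0.49 (standard error 0.08, 95% interval -0.67 to -0.30) and the adjusted p was 0.00100 (edgeR). Itgal thus passed the p threshold and stood just short of the fold threshold, which it passed in all 8 libraries (-0.54) and without replicate 4 (-0.62), while it was -0.38 without replicate 3. The TPM gave a change of -0.52 on the log2(TPM + 1) scale with an adjusted p of 0.0181 from limma, which became 0.0727 without replicate 2 and 0.0827 without replicate 3.

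Itga4, the alpha chain of VLA-4 (ENSMUSG00000027009, chr2:79085660-79163467, plus strand, 28 exons), moved in the other direction. It was at 103, 98.2, 141 and 142 CPM in controls 1 to 4 and at 116, 130, 218 and 188 CPM in 4A1 KO 1 to 4. The libraries of batch A were lower than those of batch B in both genotypes, so that the genotypes overlapped in level although each 4A1 KO library was above its same-numbered control. The log2 differences within pairs were 0.17, 0.40, 0.63 and 0.40 for replicates 1 to 4. Fitted with batch and sex, the log2 fold change was 0.48 (standard error 0.06, 95% interval 0.35 to 0.61, adjusted p = 1.81e-04, edgeR). Like Itgal it stood just short of the fold threshold, and it passed it without replicate 2 (0.51) and without replicate 4 (0.52). Without the replicate block the adjusted p was 0.0957 in the counts and 0.179 in the TPM, against 0.0109 with the block in the TPM by limma. The exact permutation test over the 8 libraries, which ignores batch, gave p = 0.171 (two-sided).

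The alpha chains Itga6 and Itgav showed no change past the thresholds. Itga6 (ENSMUSG00000027111, chr2:71575960-71689757, plus strand), a laminin receptor chain, had a mean of 14.4 ± 2.12 CPM in the controls and of 15.9 ± 1.20 in 4A1 KO cells (SD, n = 3). The log2 fold change was 0.15 with a 95% interval of -0.06 to 0.35 (adjusted p = 0.209, edgeR). Itgav (ENSMUSG00000027087, chr2:83554403-83637260, plus strand), the chain of the vitronectin receptors, was at 27.0 ± 1.43 and 27.1 ± 3.43 CPM. Its interval was -0.19 to 0.18, which leaves out changes as large as those of Itgal and Itga4. The 4A1 KO libraries of Itgav fell into levels by batch, with 23.2 and 23.1 CPM in the batch A replicates 1 and 2 and 29.0 and 29.1 CPM in the batch B replicates 3 and 4, while the controls lay between 26.1 and 28.6 CPM.

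Among the beta chains, Itgb7 (ENSMUSG00000001281, chr15:102124429-102140379, minus strand, 15 exons) had the lowest TPM of the 10 genes and the largest change in counts. Its change was smaller than that of Cd9 without replicate 3 (-0.66 and -0.72), and smaller in size than those of Itgal, Cd9 and Itga4 on the log2(TPM + 1) scale. Controls 1 to 4 held 127, 121, 103 and 112 raw counts of Itgb7, and 4A1 KO 1 to 4 held 53, 74, 56 and 68. In CPM these were 3.17, 2.99, 2.48 and 2.57 against 1.68, 1.92, 1.38 and 1.59. No 4A1 KO library reached the level of any control. With this separation the exact permutation test (two-sided, 8 libraries, 10 such tests in all) gave p = 0.0286, the lowest value possible at 4 against 4. The log2 fold change was -0.72 (standard error 0.16, 95% interval -1.09 to -0.35, adjusted p = 0.00543, edgeR). On a linear scale this change is -39.4%. DESeq2 gave -0.73 with an adjusted p of 0.0521, and -0.50 with its normal shrinkage. With limma the change on the log2(TPM + 1) scale was -0.43 (adjusted p = 0.00821), a scale that understates the change of a gene at 1 to 2 TPM, and it was -0.66 with a pseudocount of 0.1.

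The other beta chains, Itgb2 and Itgb1, were not called. Itgb2 (ENSMUSG00000000290, chr10:77366086-77401542, plus strand), the beta chain of LFA-1, was at 81.3, 86.4, 89.4 and 82.6 CPM in controls 1 to 4 and at 75.6, 79.4, 83.7 and 89.2 CPM in 4A1 KO 1 to 4. The genotypes overlapped, the log2 fold change was -0.03, and the interval of -0.17 to 0.10 lay wholly above the interval of Itgal, its partner. Itgb1 (ENSMUSG00000025809, chr8:129411876-129460618, plus strand), the beta chain shared by Itga4, Itga6 and Itgav, was at 101, 90.4 and 99.3 CPM in controls 2 to 4 and at 99.0, 128 and 109 CPM in 4A1 KO 2 to 4, and in replicate 1 the 4A1 KO level was also the higher one, by 0.28 on the log2 scale. Its log2 fold change was 0.20 (95% interval 0.00 to 0.40), and its adjusted p of 0.0832 (edgeR) missed the threshold. The change was 0.06 without replicate 3 and 0.31 without replicate 2, and the adjusted p was 0.0291 in all 8 libraries, 0.0427 without replicate 2 and 0.0331 without replicate 4 (edgeR), always short of the fold threshold. Replicate 3 had the largest difference within a pair, 0.50, and replicate 2 had -0.02.

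**Figure D2:**
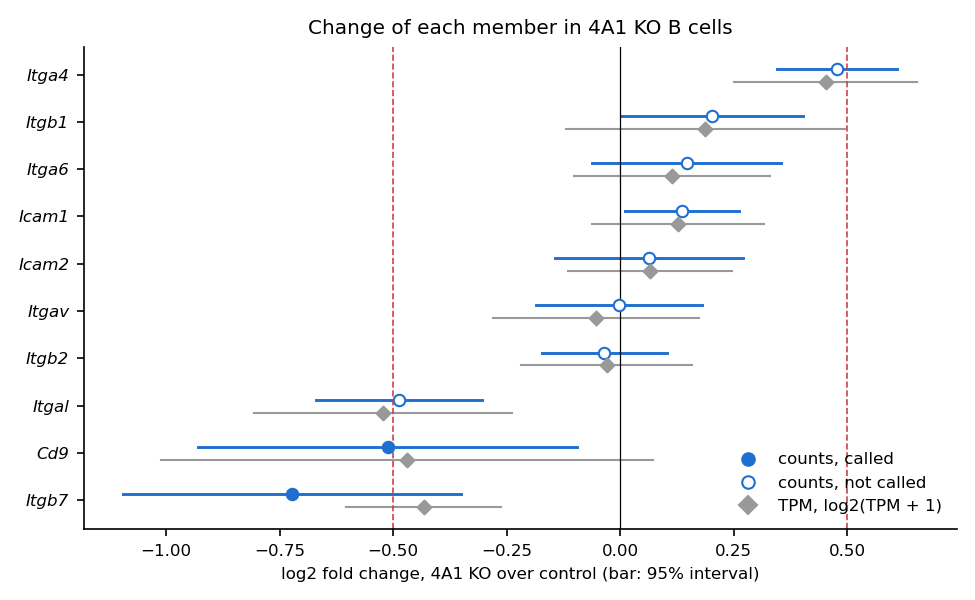
Log2 fold change of each gene in 4A1 KO over control (horizontal axis) with its 95% interval, from counts (circles, edgeR) and from TPM on the log2(TPM + 1) scale (diamonds, limma), replicates 2 to 4. Dashed lines mark the fold threshold of 0.5 in both directions; Itgb7 and Cd9 are past it in the counts, and Itgal and Itga4 stop at -0.49 and 0.48.

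Because TPM correct for length, the level of an alpha chain can be set against that of the beta chain with which it pairs. Itgal exceeded Itgb2 in every library, and the TPM ratio was 2.54, 1.94 and 1.69 in controls 2 to 4 against 1.72, 1.30 and 1.33 in 4A1 KO 2 to 4. The ratio was lower in each 4A1 KO library than in its same-numbered control, and the ranges overlapped slightly. Itga4 exceeded Itgb7 12.4 ± 3.18 times in control and 28.6 ± 10.2 times in 4A1 KO cells (ratio of TPM, SD, n = 3). The 4A1 KO ratios of Itga4 to Itgb7, between 17.2 and 37.5, were above all control ratios, between 8.52 and 15.1, also with replicate 1, and the mean log2 ratio was 1.17 higher. Against Itgb1, Itga4 was at a ratio of 0.529 ± 0.122 in control and 0.633 ± 0.0924 in 4A1 KO, with overlap. Itgav was at 0.159 ± 0.00610 of Itgb1 in control and 0.134 ± 0.0121 in 4A1 KO, with no overlap in the 6 or the 8 libraries, whereas the ratio of Itga6 to Itgb1 overlapped (0.157 and 0.152). These ratios are of mRNA, and they were described without a test. The share of all gene pairs whose ratios do not overlap was not computed. Of single genes, 50.3% did not overlap in TPM in the 6 libraries and 35.7% in the 8.

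**Figure D3:**
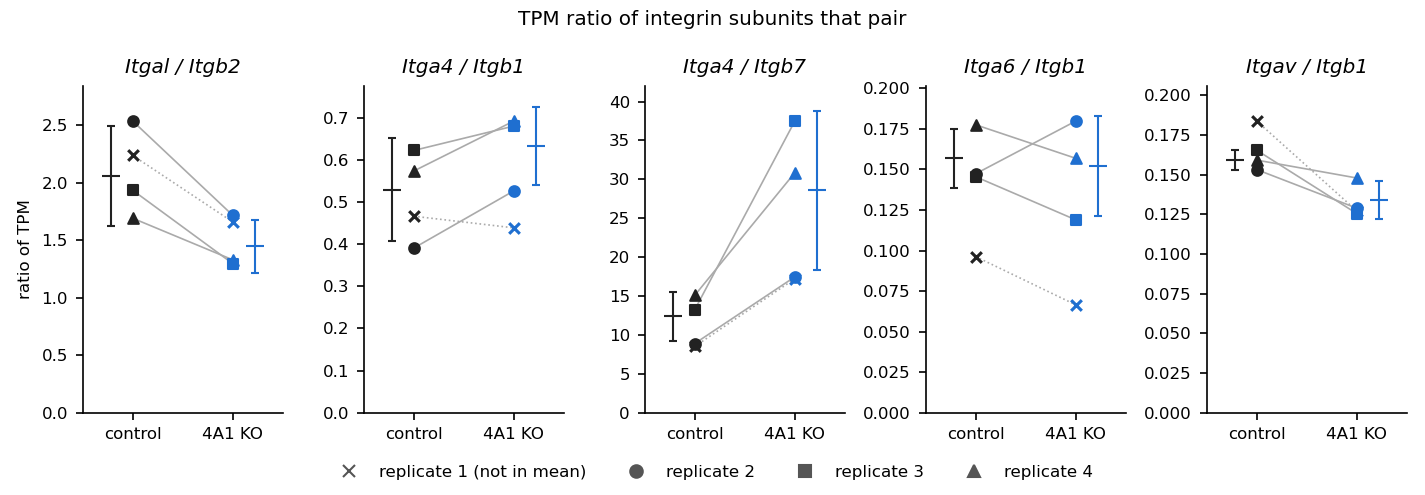
Ratio of the TPM of alpha to beta chains that pair (vertical axis from 0, a separate scale for each pair) in control (black) and 4A1 KO (blue) libraries, with the mean and SD of replicates 2 to 4 beside the points. The ratio of Itga4 to Itgb7 is higher and that of Itgav to Itgb1 lower in all 4A1 KO libraries, and the other ratios overlap. Of single genes, 35.7% do not overlap in TPM in the 8 libraries, and the share for ratios was not computed.

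Icam1 and Icam2, ligands of LFA-1, were not called. Icam1 (ENSMUSG00000037405, chr9:20926672-20940113, plus strand) was at 250, 349 and 325 CPM in controls 2 to 4 and at 299, 349 and 360 CPM in 4A1 KO 2 to 4. It was equal or higher in 4A1 KO in each pair, including replicate 1 (305 and 338 CPM), and the log2 fold change was 0.14 (95% interval 0.01 to 0.26, adjusted p = 0.0648, edgeR). It was 0.08 without replicate 2 and 0.21 without replicate 3 (adjusted p = 0.0186, edgeR). Icam2 (ENSMUSG00000001029, chr11:106263312-106278943, minus strand) was at 15.1, 13.8, 16.4 and 14.7 CPM in controls 1 to 4 and at 17.7, 16.3, 16.2 and 14.4 CPM in 4A1 KO 1 to 4. Its log2 fold change of 0.06 had an interval of -0.14 to 0.27. Changes as large as the 0.5 threshold lay outside the intervals of both ICAM genes.

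Cd9 (ENSMUSG00000030342, chr6:125437210-125471778, minus strand, 8 exons) was at 8.86, 17.5, 5.94 and 8.22 CPM in controls 1 to 4 and at 6.49, 8.07, 5.77 and 6.65 CPM in 4A1 KO 1 to 4. Each 4A1 KO library was below its same-numbered control, but control 2 stood far above the other controls and the remaining 7 libraries overlapped. The log2 fold change was -0.51 (standard error 0.18, 95% interval -0.93 to -0.09, adjusted p = 0.0423, edgeR), just past both thresholds. Without replicate 2 it was -0.18 (adjusted p = 0.337), so that the call rests on replicate 2. Without the replicate block it was -0.63 with an adjusted p of 0.217 (edgeR). In TPM the change was -0.47 (adjusted p = 0.124, limma), and the exact permutation test over the 8 libraries gave p = 0.171 (two-sided).

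Besides Cd9, some markers of B cells and of other cells were highest in control 2. Among the B cell markers these were Ms4a1 (652 CPM, other controls 517 to 572), Cd79a (364, others 198 to 339) and Cd22 (334, others 263 to 309), and Cr2 below. Cd79b, Pax5 and Fcer2a were not highest in control 2. All 7 marginal zone B cell markers of the list passed the p threshold (beside 53.0% of all genes), 4 were called lower and 1 higher (beside 13.7% and 11.6%), and their summed level was 351 to 415 CPM in controls 2 to 4 and 279 to 310 CPM in 4A1 KO 2 to 4. Cr2, the complement receptor CD21, was at 117 CPM in control 2, at 59.9 to 67.2 CPM in the other controls and at 30.8 to 43.1 CPM in 4A1 KO. Dtx1, an E3 ligase linked to Notch signalling, was at 36.1 CPM in control 2, 21.5 to 26.1 CPM in the other controls and 11.3 to 12.8 CPM in 4A1 KO, and Myof was at 17.4, 7.05 to 8.39 and 4.23 to 5.85 CPM. Plxnd1 of the same list was not highest in control 2, at 182, 184, 209 and 213 CPM in controls 1 to 4. Cr2, Dtx1 and Myof, unlike Cd9, separated the genotypes also without control 2. Cd1d1 (4.63 CPM) and Asb2 (10.1 CPM) of the same list were also highest in control 2 and, like Cd9, overlapped between the genotypes without it. S1pr3, a sphingosine-1-phosphate receptor of marginal zone B cells, was higher in 4A1 KO (log2 fold change 0.59). Control 2 was also highest in the fibroblast collagen Col1a1 (27.4 CPM, other controls 5.24 to 9.31) and in Mpeg1 of the macrophage and myeloid list (39.4 CPM, other controls 12.5 to 17.4), which was lower in 4A1 KO (log2 fold change -1.30). Thy1 of the fibroblast list was lowest of the controls in control 2, at 5.10 CPM against 19.2 and 31.3 CPM in controls 3 and 4. Mpeg1 made up most of the summed level of that list in the controls, which was 20.9 to 50.8 CPM in controls 2 to 4 and 19.6 to 24.9 CPM in the 4A1 KO libraries. The macrophage gene Adgre1 was called in the other direction (log2 fold change 0.62) and at 5.47 CPM in control 2 was below control 1 at 7.02 CPM, and S100a8 and S100a9 had no counts in any library. Fibroblasts and myeloid cells also express Cd9, and the part of any of these cells in the level of Cd9 was not tested.

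**Figure D4:**
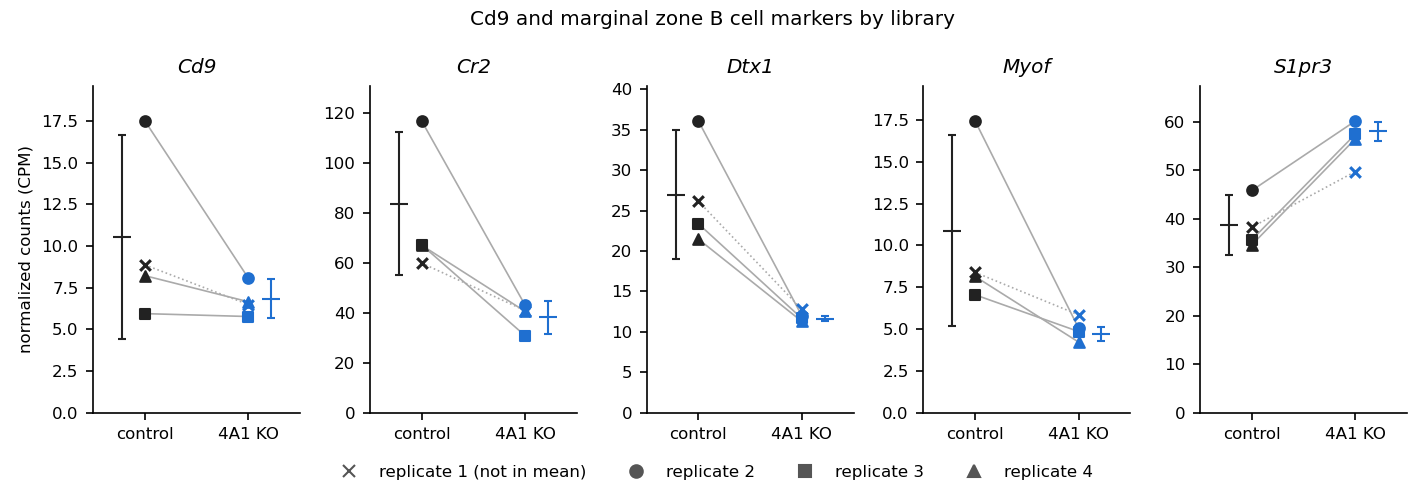
Normalized counts (CPM, vertical axis from 0, a separate scale for each gene) of Cd9 and of the marginal zone B cell markers Cr2, Dtx1, Myof and S1pr3 in control (black) and 4A1 KO (blue) libraries, with the mean and SD of replicates 2 to 4. Control 2 is the highest library for Cd9, Cr2, Dtx1 and Myof, and without it Cd9 overlaps between the genotypes while the other 4 genes do not. Cd1d1 and Asb2 of the same list, which are not shown, are also highest in control 2 and overlap without it.

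Compared per length, the order of the 10 genes in control B cells was Icam1 (230 ± 40.8 TPM), Itgal (114 ± 23.2), Itgb2 (55.8 ± 1.32), Itgb1 (48.5 ± 3.29), Icam2 (30.7 ± 2.73), Itga4 (25.5 ± 5.40), Cd9 (16.2 ± 9.09), Itgav (7.71 ± 0.382), Itga6 (7.63 ± 1.31) and Itgb7 (2.08 ± 0.118; all SD, n = 3). Icam1, which activated B cells express strongly, was above 94.1% of the genes with at least 1 TPM, and Itgb7 was above 10.7% of them. Neighbours in this order overlapped between Icam2 and Itga4, between Itga4 and Cd9, and between Itgav and Itga6. In 4A1 KO the order of means differed from this in 3 places, each within overlapping ranges. There Itgb1 (55.6 ± 7.60 TPM) was above Itgb2 (54.7 ± 4.44 TPM), Itga4 (35.6 ± 9.13 TPM) above Icam2 (32.1 ± 1.32 TPM), and Itga6 (8.29 ± 0.640 TPM) above Itgav (7.44 ± 1.05 TPM). TPM and counts gave different pictures of Itga6 in replicate 1, with 4.01 TPM for control 1 and 3.29 TPM for 4A1 KO 1, below the 6.52 to 9.08 of the other libraries, while its CPM of 12.0 and 11.5 were just below the 12.6 to 16.7 of the others.

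None of the 10 genes had a genotype effect that differed between sexes or batches after adjustment (edgeR interaction terms in 8 libraries, adjusted p = 0.999 or 1 for all). Over all genes the calls were 0 of 14211 (0.00%) for sex and 1 of 14211 (0.00704%) for batch. With so few libraries of a genotype in each sex or batch, these terms cannot show that the effects were alike. The smallest unadjusted p-values were 0.0152 for Itgb1, whose log2 fold change was 0.34 higher in males, and 0.0381 for Cd9, whose log2 fold change was 0.64 higher, that is less negative, in batch B. Among the alpha chains, Itgal had an unadjusted p of 0.0576 for sex, with a log2 fold change 0.30 lower in males.

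The helicase EIF4A1 unwinds 5′ untranslated regions (5′UTRs), so the length and GC content of these regions were described from the GENCODE M39 annotation of GRCm39 for the canonical transcript of each gene. Among 11353 tested genes the median 5′UTR was 231 nucleotides long with 65.0% GC. The 5′UTRs of Itgav (676 nucleotides), Icam1 (659) and Itgb1 (565) were longer than those of 91.4%, 90.7% and 86.8% of these genes, and that of Itgb7 (97 nucleotides) was longer than those of 16.7%. The GC content ran from 54.2% in Icam2 to 76.9% in Itga6. The 3 genes with long 5′UTRs were not called, and among the genes with an adjusted p under 0.05, Itgb7, Cd9 (176) and Itgal (209) had 5′UTRs shorter than the median and Itga4 (344) a longer one. Itgb2, with a log2 fold change of -0.03, also had a 5′UTR shorter than the median (211). RNA levels do not measure how well these mRNAs were translated.

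The other genes of adhesion were described from lists of integrin subunits, of proteins that regulate or anchor integrins, of other ligands and receptors, and of other tetraspanins. Of 74 genes listed, 56 were tested and 11 were called (beside 25.3% of all genes). None of the 8 tested integrin subunits outside the 10 genes was called, and 5 of the 19 listed had no counts in any library. The summed level of all 19 was 13.5 to 17.7 CPM in controls 2 to 4. Itgb3, the beta chain of platelet and vitronectin receptors, which was chosen after its values were seen, contributed 8.23 ± 2.36 CPM in the controls and 10.3 ± 1.94 CPM in 4A1 KO cells (SD, n = 3), and its log2 fold change of 0.34 (adjusted p = 0.0407, edgeR) was short of the fold threshold.

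The list of genes that regulate or anchor integrins also holds inhibitors, such as the Rap1 inactivators below. Of its 27 tested genes, 5 were lower and 0 higher, beside 13.7% and 11.6% of all genes, with a median log2 fold change of -0.11. Fermt3, the haematopoietic kindlin that binds the beta chain tail and is needed for integrin activation, went from 327 ± 26.9 CPM in the controls to 194 ± 20.1 CPM in 4A1 KO cells (SD, n = 3), with a log2 fold change of -0.76 (adjusted p = 2.79e-05, edgeR). Vcl, which encodes vinculin, an anchor of integrins to actin, fell by 1.09 on the log2 scale, and Rap1gap2, which switches off the GTPase Rap1, fell by 1.42 from a level of 4.73 CPM. Sipa1, another Rap1 inactivator, and Apbb1ip, the Rap1 effector that brings talin to integrins, were also lower, by -0.69 and -0.54, and are named here after their values were seen. Rap1b, a Rap1 GTPase gene that was also chosen after its values were seen, went from 349 ± 12.4 to 462 ± 35.2 CPM (SD, n = 3) without overlap, and its log2 fold change of 0.40 (adjusted p = 1.49e-04, edgeR) was short of the fold threshold. Tln1, which encodes talin and was likewise chosen after its values were seen, was at 542 ± 59.3 and 490 ± 9.73 CPM with a log2 fold change of -0.14 (adjusted p = 0.0570, edgeR).

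Of the 9 tested ligands and receptors, 3 were lower and 2 higher, beside 13.7% and 11.6% of all genes, with a median log2 fold change of 0.07. Selplg, the selectin ligand PSGL-1, fell by 1.08 on the log2 scale, from 13.5 ± 1.64 to 6.51 ± 1.98 CPM (SD, n = 3). Madcam1, the ligand of the Itga4 and Itgb7 integrin, was higher by 0.89 and Fn1, which encodes fibronectin, the matrix ligand of VLA-4, by 0.86, both at low levels (0.870 and 3.20 CPM in control) with overlapping genotypes. The other lower genes, named after their values were seen, were Pecam1 (-0.83) and the signalling lymphocyte receptor gene Cd48 (-0.63). Among the 12 tetraspanins other than Cd9, 1 was called, beside 25.3% of all genes. It was Cd151, a partner of laminin receptors such as Itga6 with Itgb1, with 1.68 ± 0.365 CPM in the controls and 2.60 ± 0.157 CPM in 4A1 KO cells and a log2 fold change of 0.64. The median of these tetraspanins was -0.09.

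**Figure D5:**
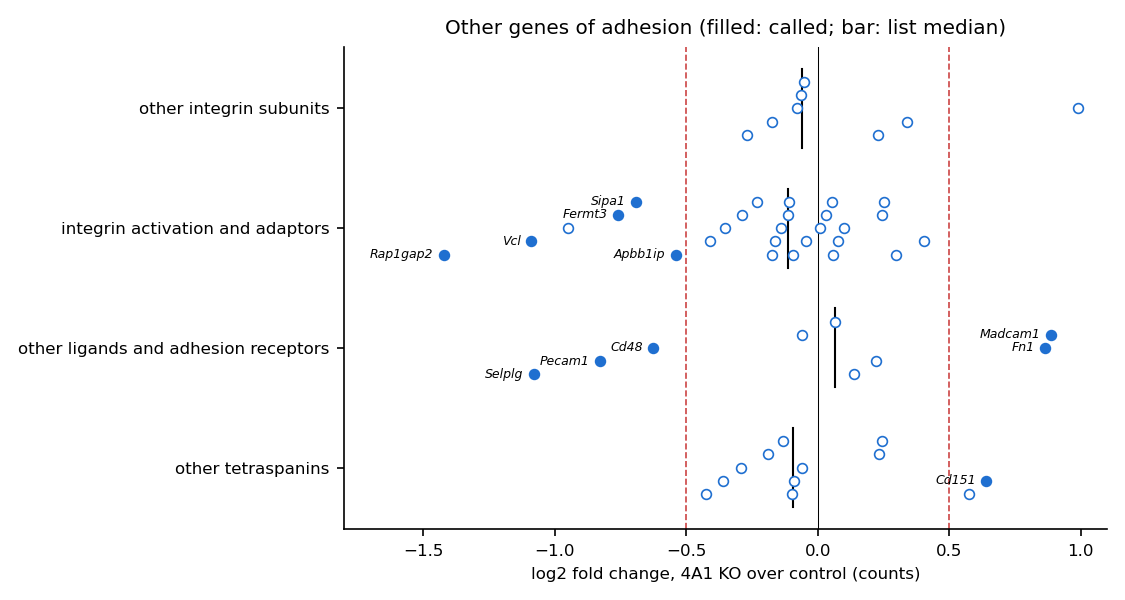
Log2 fold change in 4A1 KO over control (horizontal axis, counts of replicates 2 to 4) of the tested genes of 4 lists of other adhesion genes, 1 point per gene, with called genes filled and named, the list median as a short bar and dashed lines at the fold threshold of 0.5. The points are spread vertically only to be seen, and the called genes are 0 of 8, 5 of 27, 5 of 9 and 1 of 12 from top to bottom, beside 25.3% of all genes.

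Plasmablast markers were lower in 4A1 KO for 3 of 5 genes, beside 13.7% of all genes (Sdc1 -1.22, Xbp1 -0.94, Prdm1 -0.64 on the log2 scale, while Jchain had 0.21 and was not called). The sum of all 5 markers, 622 to 928 CPM for controls 2 to 4 and 549 to 690.3 CPM for 4A1 KO 2 to 4, overlapped. Irf4, which was not called, made up most of this sum, at 457 to 740 CPM for controls 2 to 4 and 464 to 578 CPM for 4A1 KO 2 to 4. The summed T cell markers, 14.5 to 24.5 CPM for controls 2 to 4 and 10.4 to 19.5 CPM for 4A1 KO 2 to 4, were nearly all Lck. The T cell genes Cd3d, Cd3e, Cd3g, Cd4 and Cd8a were each at 0 to 0.0999 CPM in the 8 libraries, near or at no counts. Trac, the T cell receptor alpha constant gene of the same list, was at 0.348 to 1.09 CPM in the 8 libraries and highest in control 2. Platelet and megakaryocyte markers, which accompany integrin mRNA where platelets are present, summed to 0.643 to 0.918 CPM and 0.701 to 1.05 CPM. Plasmablasts express Itga4 and Cd9, and their part in the values of these genes was not tested.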

How the data were processed

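RNA of 8 B cell cultures was sequenced, and group, sex, batch and replicate number were taken from the labels. The authors trimmed reads with Trim Galore 0.6.6, mapped them to GRCm39 with HISAT2 2.1.0 and deposited raw counts made with Seqmonk over merged isoforms of each gene, on the strand opposite to the reads. The authors also deposited TPM made with StringTie 2.1.1. How reads with several matches were counted is not given in the sources used here. No per-sample column was left unused.

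Counts were analysed with edgeR 4.0.16 in R 4.3.3 on replicates 2 to 4, with filterByExpr, TMM normalization and batch, sex and genotype as terms, which in these 6 libraries equals a replicate block. The pairing comes from the batch and sex in the labels, and deviations from the genotype means correlated across genes within same-numbered pairs (r = 0.488, 0.403 and 0.333). CPM were normalized over all 8 libraries. For the 12976 genes that averaged 1 TPM or more, log2(TPM + 1) was tested with limma 3.58.1. Adjusted p-values are Benjamini-Hochberg values over all genes tested, and tests are two-sided. The precision of single libraries is limited by counting, which matters for Itgb7 at 53 to 127 counts.

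The genes and the lists were chosen with earlier results of these data known, and 2 genes of the lists are not reported here. Named are the 10 genes, Eif4a1, and from each other list up to 3 called genes with the largest change and a mean of at least 1 CPM. Other genes of the lists, such as S1pr3, Plxnd1, Cd1d1, Asb2, Col1a1, Thy1, Lck, Trac, Irf4 and Cd79a, were named after their values were seen. Alternatives were other normalizations and filters, DESeq2 1.42.0, a pseudocount of 0.1, no replicate block, all 8 libraries, glmTreat and leaving out each replicate. The code was tested on simulated data. Other genes overlap some of the 10 on the opposite strand, which counting by strand keeps apart, and non-coding genes overlap Itga6 and Cd9 on the same strand, which it does not. A stretch of Itga6 shares its sequence with Gm29397 (100% over 326 bases) and one of Itgb2 with Gm14699 (96.5% over 228 bases), so reads there are uncertain.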

Additional observations from a re-analysis of the deposited data

Results flagged for a closer look

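Itgav and Icam2 had opposite signs in the batches in CPM. The 4A1 KO level of Itgav was below control in both pairs of batch A and above it in both pairs of batch B, and the mean log2 difference of batch A minus that of batch B was -0.279. For Icam2 the batch A pairs were higher and the batch B pairs lower in 4A1 KO, with a difference of 0.260. In TPM neither gene kept to this, since in replicate 4 the log2 difference was -0.0028 for Itgav and 0.03 for Icam2. The interaction term of genotype and batch (edgeR, 8 libraries) gave unadjusted p-values of 0.0447 for Itgav and 0.0785 for Icam2 and an adjusted p of 0.999 for both, so neither difference passed the test. Dixon's test on the CPM and TPM of the 10 genes, 40 groups of 4 libraries in all, found no library beyond its 95% critical value, where chance gives about 1 in 20. For Cd9 in control, where control 2 is highest, the gap to its neighbour over the range was 0.747 in CPM.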

How the results depend on the processing

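Under the alternatives, 98 log2 fold changes of the 10 genes kept their direction and their call by both thresholds together, 6 changed sign, 11 lost the call and 5 gained it. In TPM these were 63, 2, 4 and 1. Some that kept the call crossed the p threshold alone, such as Itga4 without the replicate block (adjusted p = 0.0957). The 11 called genes of the other adhesion lists ranged from 8 to 13. The 2 called members became 0 with DESeq2 (with and without shrinkage) and glmTreat, 1 with a filter at 1 CPM and without the replicate block, and 2 to 4 when replicates were left out in turn (Itga4 and Itgb7 without replicate 2, and Itgal, Itga4, Itgb7 and Cd9 without replicate 4). Over all genes 3596 calls became 1627 with glmTreat. Itgb7 was -0.73 with DESeq2, -0.50 with shrinkage (adjusted p = 0.0521 for both) and -0.72 with glmTreat (adjusted p = 0.196). Cd9 was no longer called with upper quartile normalization (-0.49), DESeq2 (-0.50, with shrinkage -0.46), a filter at 1 CPM (-0.51, adjusted p = 0.0506), no replicate block (-0.63), all 8 libraries (-0.50) and glmTreat (-0.51), and its TPM passed in all 8 libraries (-0.46, adjusted p = 0.0497). Itgal was called in all 8 libraries (-0.54) and Itga4 with upper quartile normalization (0.50). The TPM test lost Itgal without a filter (-0.52) and Itga4 without the replicate block (0.45). Itgav, close to 0, changed sign with upper quartile normalization (0.0207), a filter at 1 CPM (0.0027) and no replicate block (0.0036). Without the block no other call of the 10 genes changed. Leaving out each replicate in turn gave -0.62 to -0.38 for Itgal, 0.41 to 0.52 for Itga4, -0.77 to -0.66 for Itgb7, -0.72 to -0.18 for Cd9, -0.108 to 0.00794 for Itgb2, -0.0696 to 0.0809 for Itgav, -0.0242 to 0.112 for Icam2, 0.06 to 0.31 for Itgb1, 0.08 to 0.21 for Icam1 and 0.09 to 0.24 for Itga6. In TPM it gave -0.66 to -0.44 for Itgal, -0.0976 to 0.0133 for Itgb2 and -0.125 to 0.0448 for Itgav. Without replicate 2 the sign turned for Itgb2 (0.00794 in counts and 0.0133 in TPM), Itgav (0.0809 and 0.0448) and Icam2 (-0.0242). The causes were not tested. With 3 libraries per genotype, small changes of the 6 genes without a call or a low p could be missed.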
